A study of Homo sapiens with 6 samples.

Results

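This account describes 10 genes that the literature treats as direct targets of the YAP/TEAD transcription complex: CYR61, CTGF, ANKRD1, AMOTL2, AMOTL1, AXL, F3, AJUBA, CRIM1 and NUAK2. They were picked by gene name from a table of 58735 genes, and all 10 were among the 17574 genes with enough counts to be tested. The 10 genes were chosen by name with the log2 fold changes between knockdown and control cells in these same libraries already known. Their differences are therefore given as a description with no test, and their number among the called genes carries no weight of its own.

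The libraries came from the colorectal cancer cell line sw480, an established epithelial line, and were made for RNA-seq from isolated total RNA. There were 3 libraries with the genotype CNOT7 control and 3 with the genotype CNOT7 knockdown, and the treatment field of all 6 read "No". Both groups were stable lines made with a short hairpin RNA vector, and the hairpin in each library is not stated, so the knockdown group could mix hairpins. The labels name sw480, whereas the study's own text names HCT116 for this experiment. CNOT7 is a catalytic subunit of CCR4-NOT, the complex that shortens the poly(A) tail of mRNAs, and the comparison asks which transcripts differ when its level is low.

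YAP and its relative TAZ are transcriptional co-activators that do not bind DNA themselves. When the Hippo kinases LATS1 and LATS2 are inactive, YAP and TAZ enter the nucleus, bind TEAD factors and switch on genes for matrix proteins, receptors and cytoskeletal regulators. Several of the products feed back on the pathway: angiomotins hold YAP in the cytoplasm, and AJUBA restrains LATS. In the intestinal epithelium, YAP is known for its part in regeneration and in tumour growth.

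The total counts ran from 23788451 to 29104872 per library, and each of the 3 knockdown totals exceeded each control total. CNOT7 itself had 169, 191 and 176 CPM (each library's counts scaled to the same effective size by the TMM method) in the control libraries and 43.4, 47.2 and 38.6 in the knockdown libraries. It was lower by 2.05 on the log2 scale (log2 fold change -2.05, SE 0.0734, edgeR quasi-likelihood adjusted p = 2.64e-12), so the target was reduced in the libraries labelled knockdown. All 8 epithelial markers were tested, and their summed level spanned 5555 to 5972 CPM in control and 5133 to 5684 CPM in knockdown libraries, although CDH17 lay near 0 (mean 0.566 and 0.915 CPM). KRT8 and KRT18 carried most of this sum. Of the 8 markers, VIL1 (log2 fold change 0.72, adjusted p = 2.93e-05) and CDH1 (0.51, adjusted p = 1.55e-04) were called higher in knockdown cells, KRT19 (-0.18, adjusted p = 0.0212) and KRT8 (-0.15, adjusted p = 0.0414) were called lower, and the part of these differences in the results below was not tested. Summed stromal, endothelial and leukocyte markers lay between 1.64 and 11.95 CPM in every library, and the stromal marker DCN was at 0 in all 6. The labels do not say whether replicates were separate cultures, so p-values measure the spread between these samples only, which may be technical.

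The promoter windows of the target genes are shown first, since TEAD binding is what the genes have in common by name. RefSeq windows of 250 bases before and 50 bases after a transcription start (GRCh38.p14) were found for 8 of the 10 genes, in 11 entries, since AMOTL2, AXL and AJUBA have 2 starts each. No window was found for CYR61 and CRIM1, so they were not searched. The TEAD core motif GGAATG was searched on both strands, and 6 of the 11 entries held it, in 6 different genes. Among all 35116 RefSeq windows of the same length, 14.0% held at least 1 match, 1.37% held 2 or more and 0.128% held 3 or more. CTGF was the only one of the 8 genes searched that held 3 matches. They start at positions -169, -104 and -95 from the transcription start, where the base before the start is -1. The stretch that holds them lies at chr6:131951450-131951553 on the minus strand, upstream of the annotated gene, and is written here 5′ to 3′ on the gene's strand with the motif in capitals.
CTGF: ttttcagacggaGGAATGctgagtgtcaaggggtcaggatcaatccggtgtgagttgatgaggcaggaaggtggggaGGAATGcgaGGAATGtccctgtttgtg

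ANKRD1 and NUAK2 held 2 matches each. The ANKRD1 matches began at -220 (chr10:90921290-90921319, minus strand, outside the gene) and at -128 (chr10:90921198-90921227, minus strand, over an exon of the gene in GENCODE 29). The NUAK2 matches began at -197 (chr1:205321925-205321954, minus strand, outside the gene), read from the opposite strand as CATTCC, and at -18 (chr1:205321746-205321775, minus strand, over an annotated exon). Coordinates and exon overlaps are those of the window of 30 bases around each match. The 4 windows show how the same 6 letters sit in different surroundings, with the motif in capitals.
ANKRD1 at -220: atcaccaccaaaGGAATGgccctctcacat
ANKRD1 at -128: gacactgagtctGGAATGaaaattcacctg
NUAK2 at -197: tcccctagtcccCATTCCtggtgggcgggt
NUAK2 at -18: ttataacaacttGGAATGctgtgctttact

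AMOTL2, AXL and AJUBA each held 1 match, in every case at the second of their 2 starts and not at the first. The match of AMOTL2 began at -69 (chr3:134374499-134374528, minus strand, over an exon), that of AXL at -212 (chr19:41226531-41226560, plus strand, within the gene and outside its exons) and that of AJUBA at -59 (chr14:22976884-22976913, minus strand, over an exon). Coordinates and exon overlaps are again those of the windows of 30 bases. AMOTL1 and F3 held no match, which says only that these letters are not in their promoter windows.
AMOTL2: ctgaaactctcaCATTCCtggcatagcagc
AXL: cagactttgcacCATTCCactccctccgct
AJUBA: gggaagttggctGGAATGaagccaaagcaa

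The AP-1 motif TGANTCA is bound by factors of the FOS and JUN families, which often neighbour TEAD. It was found in 2 of the 11 windows, in 2 different genes, against 7.71% of all windows. ANKRD1 held 1 match, beginning at -195 between its TEAD matches. F3 held 2, at -223 and -210, and 0.515% of all windows hold 2 or more. The stretch of 30 bases that holds the F3 pair lies at chr1:94541958-94541987 on the minus strand, outside the gene. It is shown with both AP-1 motifs in capitals because F3 is the target gene whose window holds AP-1 motifs and no TEAD core.
F3: gcggtTGAATCActggggTGAGTCAtccct
The CArG box, the site of serum response factor, was found in 0 of the 11 windows and in 1.29% of all windows. A match of this kind is a match of letters and not a measured binding site.

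**Figure D1:**
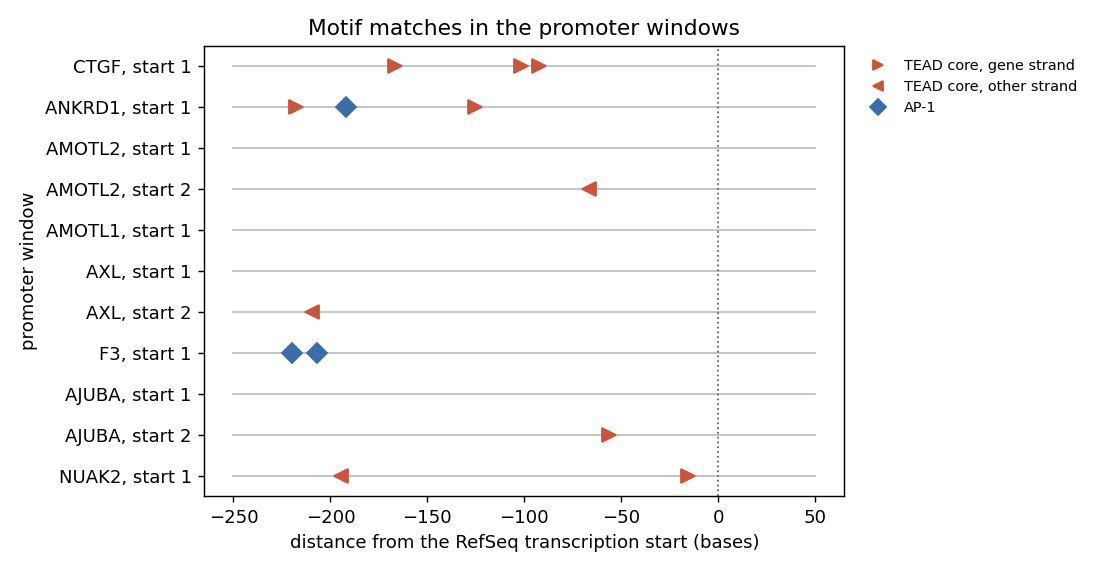
Positions of the motif matches in the 11 RefSeq promoter windows of 8 target genes, with the distance from the transcription start in bases on the horizontal axis and 1 line per window. Red triangles mark TEAD core matches (pointing right on the gene's strand, left on the other) and blue diamonds AP-1 matches; CTGF carries 3 TEAD matches, between -169 and -90, and F3 carries 2 AP-1 matches.

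Across the 10 genes, 8 were called lower in knockdown cells and 0 higher, against 11.9% of all tested genes called lower and 13.3% called higher (2095 and 2329 genes, edgeR quasi-likelihood test with Benjamini-Hochberg adjusted p under 0.05; 1367 lower without control replicate 3). In the same 8 genes every knockdown library lay below every control library, which held for 18.2% of all tested genes, while 20.6% had every knockdown library above every control library. The median log2 fold change was -0.93 over the 10 genes and 0.00 (0.00393) over all tested genes. Because the genes were selected on this contrast, nothing is read from these counts. Together the 10 genes summed to 1178, 1152 and 1160 CPM (here without TMM scaling) in the control libraries and to 545, 523 and 544 CPM in the knockdown libraries, so that the knockdown mean was 46.2% of the control mean.

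**Figure D2:**
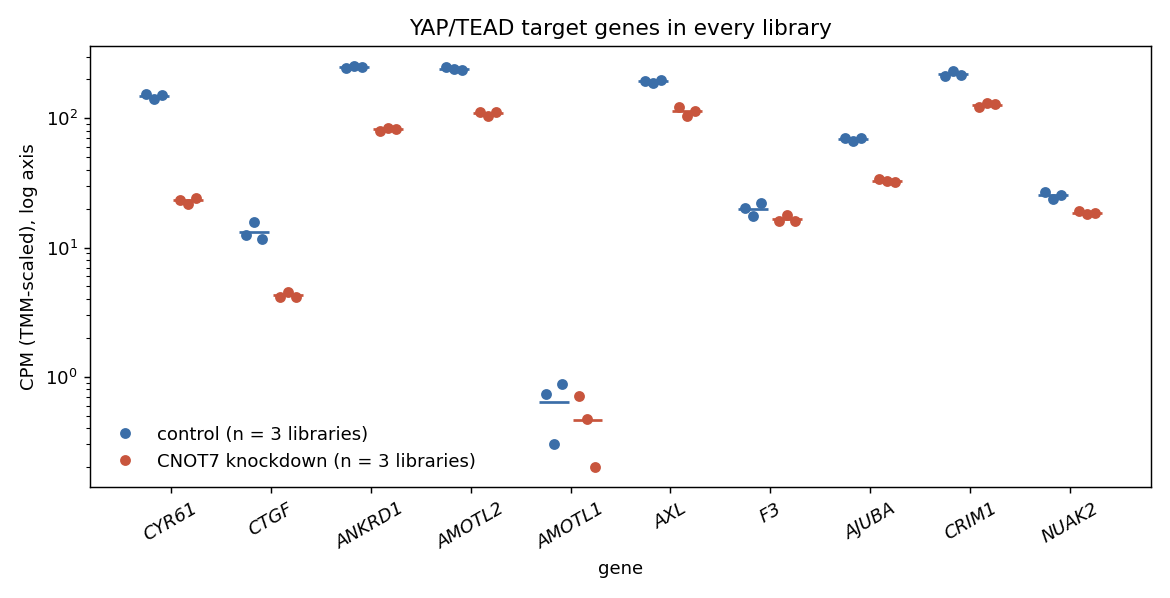
Level of each of the 10 target genes in every library, as TMM-scaled CPM on a log axis, with control libraries in blue, CNOT7 knockdown libraries in red and a line at the mean of 3 libraries. The groups are apart in 8 genes and overlap in AMOTL1, which sits below 1 CPM, and in F3.

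Of the 10 genes, the secreted ligand CYR61 showed the largest difference. CYR61 (also CCN1, ENSG00000142871, chr1:85580761-85583962, plus strand) encodes a matricellular protein that binds integrins and heparan sulfate and is among the most used readouts of YAP activity. Its level was 154.7, 141.2 and 151.7 CPM in the control libraries and 23.2, 21.9 and 24.3 CPM in the knockdown libraries. All 3 knockdown libraries were far below all 3 controls, and the values within each group lay close together. The mean went from 149.2 ± 7.08 to 23.2 ± 1.23 CPM (SD, n = 3 each), or 15.5% of the control level, and the log2 fold change was -2.69 (SE 0.0667), which is place 6 from the lowest among the 17574 genes tested.

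CTGF (also CCN2, ENSG00000118523, chr6:131948176-131951373, minus strand) encodes the closest relative of CYR61, a matrix protein known from fibrosis and wound healing. It was measured at 12.6, 15.6 and 11.6 CPM in control and at 4.15, 4.57 and 4.13 CPM in knockdown libraries. The groups did not overlap, and control replicate 2 stood above the other controls. The mean was 13.3 ± 2.10 CPM in control and 4.28 ± 0.246 CPM in knockdown cells (SD, n = 3 each), with a log2 fold change of -1.63 (SE 0.131) and place 35 from the lowest. The counts behind these values were 291 to 364 per control library and 117 to 126 per knockdown library, the smallest of the 8 genes with separate groups. Exons of an antisense gene, AL133346.1, share 8.34% of the exonic bases of CTGF, and without a stated strand setting reads there cannot be told apart. The ratio of CYR61 to CTGF counts, which does not depend on library scaling, was 12.3, 9.02 and 13.1 in control and 5.60, 4.79 and 5.89 in knockdown libraries. The ratio was thus lower in every knockdown library, so the difference of CYR61 exceeded that of CTGF.

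ANKRD1 (ENSG00000148677, chr10:90912096-90921276, minus strand) encodes an ankyrin repeat protein that acts in the nucleus as a transcriptional cofactor and in the sarcomere of muscle. Its level was 246.2, 254.1 and 248.0 CPM in control and 80.4, 84.7 and 82.8 CPM in knockdown libraries. These were the tightest replicates among the 10 genes in the control group, with a coefficient of variation of 1.65%, and the groups were fully apart. The means were 249.5 ± 4.11 and 82.6 ± 2.15 CPM (SD, n = 3 each), the knockdown level was 33.1% of control, and the log2 fold change was -1.59 (SE 0.0533). The value lay within 1 SE of that of CTGF, and without control replicate 2 the order turned (-1.50 for CTGF and -1.58 for ANKRD1).

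Among the feedback inhibitors, the 2 angiomotins differed greatly in level. AMOTL2 (ENSG00000114019, chr3:134355874-134375479, minus strand) binds YAP at cell junctions and supports its phosphorylation by LATS. It was found at 249.2, 241.0 and 237.0 CPM in control and at 112.0, 104.7 and 111.4 CPM in knockdown libraries. All knockdown values lay below all control values, and the mean of 242.4 ± 6.22 CPM was followed by one of 109.3 ± 4.06 CPM (SD, n = 3 each). The log2 fold change was -1.15 (SE 0.0541), with 45.1% of the control level left.

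AMOTL1 (ENSG00000166025, chr11:94706431-94876753, plus strand) belongs to the same family and was close to the limit of detection. Its counts were 19, 7 and 22 in control and 20, 13 and 6 in knockdown libraries, or 0.639 ± 0.301 and 0.461 ± 0.254 CPM (SD, n = 3 each). The groups overlapped, with knockdown replicate 1 above control replicate 2. The log2 fold change of -0.49 carried an SE of 0.466, it ranged from -0.96 to -0.13 over 11 alternative fits, and a difference was not detectable at this depth.

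AJUBA (ENSG00000129474, chr14:22971174-22982642, minus strand) encodes a LIM domain protein of cell junctions that binds LATS kinases and restrains them. It stood at 70.7, 66.6 and 69.8 CPM in control and at 33.8, 32.7 and 32.1 CPM in knockdown libraries. The groups were apart by a wide margin. The means were 69.0 ± 2.15 and 32.9 ± 0.868 CPM (SD, n = 3 each), the level left was 47.6% and the log2 fold change was -1.07 (SE 0.0644), near that of AMOTL2.

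The cell-surface receptors differed less. AXL (ENSG00000167601, chr19:41219203-41261766, plus strand) is a receptor tyrosine kinase for GAS6, known for invasion and for resistance to targeted drugs. It gave 195.1, 187.4 and 198.3 CPM in control and 122.4, 104.7 and 113.9 CPM in knockdown libraries. The groups did not overlap, and the knockdown libraries spread more widely than the controls. The means were 193.6 ± 5.59 and 113.7 ± 8.88 CPM (SD, n = 3 each), with a log2 fold change of -0.77 (SE 0.0611).

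CRIM1 (ENSG00000150938, chr2:36355926-36551135, plus strand) encodes a transmembrane protein with cysteine-rich repeats that binds bone morphogenetic proteins. It gave 214.4, 230.5 and 217.0 CPM in control and 122.9, 131.8 and 128.2 CPM in knockdown libraries. In both groups replicate 2 was the highest, and the groups were apart. The means were 220.6 ± 8.62 and 127.6 ± 4.49 CPM (SD, n = 3 each), and the log2 fold change of -0.79 (SE 0.0548) differed from that of AXL by less than either SE.

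F3 (ENSG00000117525, chr1:94529225-94541800, minus strand) encodes tissue factor, the receptor that starts the coagulation cascade with factor VIIa. Its level was 20.23, 17.46 and 22.02 CPM in control and 16.0, 17.9 and 16.1 CPM in knockdown libraries. Knockdown replicate 2 lay above control replicate 2, so the groups overlapped. The means were 19.9 ± 2.30 and 16.7 ± 1.04 CPM (SD, n = 3 each), and the log2 fold change was -0.26 (SE 0.0969), which was not called. It was called in 4 of 12 alternative fits, among them those without control replicate 2 (log2 fold change -0.34) and without knockdown replicate 2 (-0.31). These replicates made the groups overlap, so leaving either out removed the overlap by itself. F3 was not called without control replicate 1 (-0.25), control replicate 3 (-0.18), knockdown replicate 1 (-0.24) or knockdown replicate 3 (-0.24).

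NUAK2 (ENSG00000163545, chr1:205302059-205321791, minus strand) encodes an AMPK-related kinase that acts on myosin phosphatase and the cytoskeleton. It was measured at 26.8, 23.7 and 25.5 CPM in control and at 19.2, 18.3 and 18.5 CPM in knockdown libraries. The groups were apart, although the gap between the lowest control and the highest knockdown value was small. The means were 25.3 ± 1.54 and 18.7 ± 0.456 CPM (SD, n = 3 each), 73.7% of the control level was left, and the log2 fold change was -0.44 (SE 0.0810).

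Levels can be compared between genes only per length, so CPM were divided by the exonic length of each gene in kilobases. In control cells ANKRD1 stood highest at 126.1 ± 2.08 CPM per kilobase (SD, n = 3), followed by CYR61 (60.8 ± 2.88), AMOTL2 (40.5 ± 1.04), AXL (37.6 ± 1.08), CRIM1 (31.0 ± 1.21) and AJUBA (11.5 ± 0.359), each above the next in every library. NUAK2 (7.36 ± 0.448), F3 (6.92 ± 0.801) and CTGF (5.68 ± 0.900) came next. NUAK2 was above CTGF in every library, whereas F3 overlapped with both, so with these lengths only the place of F3 was not resolved. The lengths span all annotated exons and can exceed a single transcript (for F3, 2875 against 2287 bases). Close places may therefore depend on the length used. AMOTL1 was last, at 0.0637 ± 0.0300 CPM per kilobase. In knockdown cells ANKRD1 was again the highest, at 41.7 ± 1.09. CYR61 moved from place 2 to place 5, at 9.43 ± 0.501, below AXL (22.1 ± 1.72), AMOTL2 (18.3 ± 0.679) and CRIM1 (17.9 ± 0.630), of which the last pair overlapped. F3 (5.80 ± 0.363), AJUBA (5.50 ± 0.145) and NUAK2 (5.43 ± 0.132) came next, each overlapping with its neighbour, above CTGF at 1.83 ± 0.105 and AMOTL1 at 0.0459 ± 0.0253 CPM per kilobase.

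**Figure D3:**
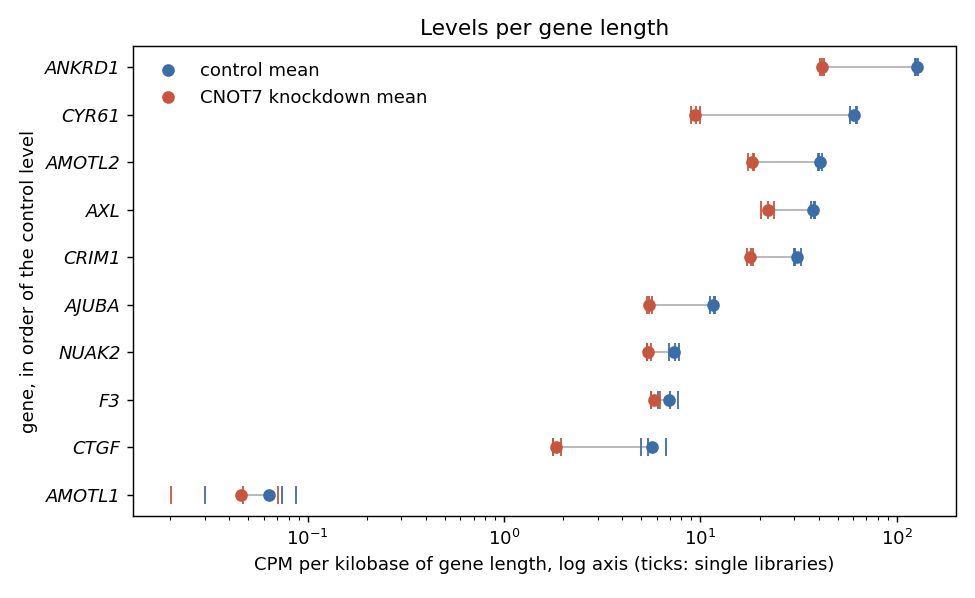
Level of each target gene per gene length, in CPM per kilobase on a log axis, with the genes in order of the control level; dots are the means of 3 control (blue) or 3 knockdown (red) libraries and ticks the single libraries. ANKRD1 is highest in both groups, and CYR61 goes from 60.8 to 9.43.

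A feature of the transcripts that the choice of genes did not use is the AU-rich pentamer ATTTA in the 3′ UTR, which is known to recruit decay factors. In 1 GENCODE 29 transcript per gene, AJUBA held 9 copies, CRIM1 and AMOTL1 held 7 each, F3 held 6, CYR61 and NUAK2 held 5 each, ANKRD1 held 4, CTGF held 3, AMOTL2 held 2 and AXL held 0. The median over the 10 genes was 5 copies, against 2 over 13644 tested coding genes, of which 67.4% held at least 1. The 3′ UTRs of the 10 genes were also longer (median 1611 against 1040 bases), and per kilobase the medians were 3.24 and 1.5 copies. Per kilobase, CYR61 held 5.43 copies, ANKRD1 held 5.19 and F3, which was not called, held 4.86. AMOTL2 and AXL, both called lower, held 1.09 and 0, and AMOTL1, which was not called, held 1.17. A relation between the copies and the differences was not tested.

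Next came genes outside the 10 that share their regulation by name. A published signature of 22 YAP/TAZ target genes has 14 further genes, of which 13 were tested, and 10 of these were called lower and 3 higher, beside 11.9% and 13.3% of all tested genes (median log2 fold change -0.41). NT5E, the surface enzyme CD73 that makes adenosine, was measured at 78.3, 89.0 and 81.9 CPM in control and at 28.4, 29.5 and 28.5 CPM in knockdown libraries. It fell by 1.53 on the log2 scale (SE 0.0682, edgeR adjusted p = 5.53e-11), which lies between ANKRD1 and AMOTL2. Its difference was already known when the list was chosen, so it is not independent evidence. The next were FJX1, a relative of the fly protein Four-jointed (log2 fold change -0.65, adjusted p = 3.3e-05), ARHGEF17 (-0.65, adjusted p = 1.71e-05), DOCK5, an activator of RAC (-0.63, adjusted p = 2.6e-06), and TGFB2, a growth factor (-0.53, adjusted p = 0.0063). The 3 genes that rose were GADD45A, a stress-response gene (0.41, adjusted p = 8.07e-04), IGFBP3, which binds insulin-like growth factors (0.39, adjusted p = 2e-05), and CCDC80, a matrix protein (0.37, adjusted p = 0.018). They are named because their count was small, after their values were seen. CCDC80 lost its call without control replicate 1 or 3 or knockdown replicate 1 or 2 (adjusted p up to 0.0955).

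**Figure D4:**
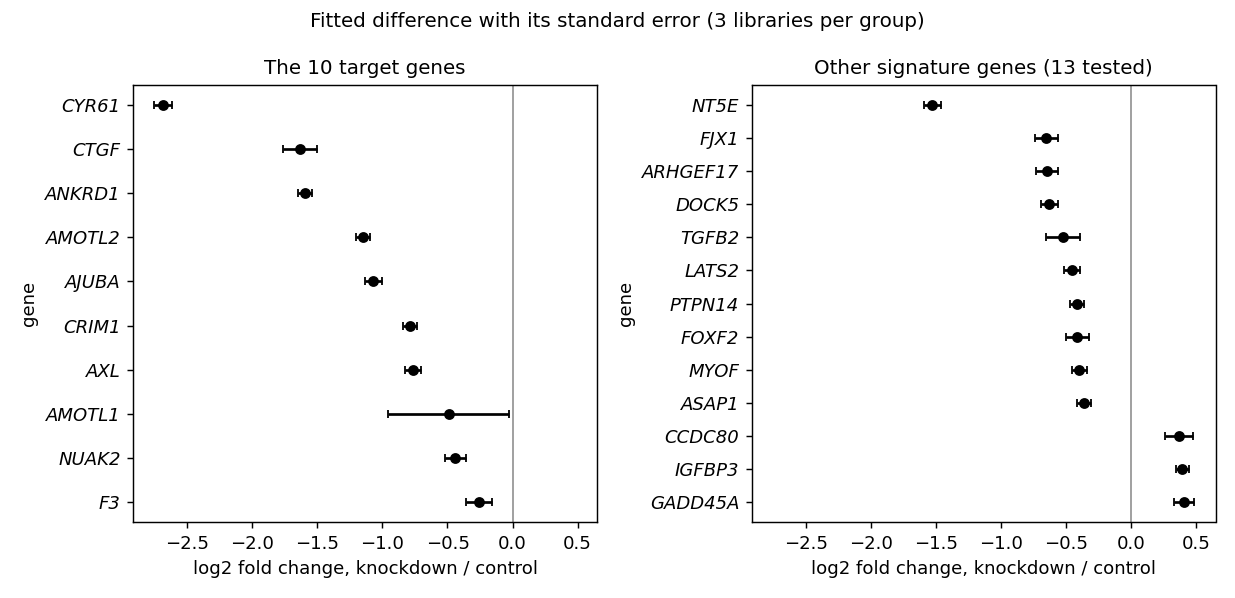
Fitted log2 fold change (knockdown over control) with its standard error for the 10 target genes, left, and for the 13 tested genes of the 22-gene signature outside the 10, right, on a shared horizontal axis; 3 libraries per group. CYR61 is lowest at -2.69 and F3 nearest 0 at -0.26, whereas 3 genes on the right lie above 0.

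A longer YAP signature adds 49 genes, of which 44 were tested, with 21 called lower and 6 higher, beside 11.9% and 13.3% of all tested genes (median -0.14). The count of lower genes was 13 without control replicate 3 and 13 without knockdown replicate 1. DDAH1, an enzyme of nitric oxide control, had 102.6, 107.1 and 102.3 CPM in control and 56.2, 62.8 and 57.5 CPM in knockdown libraries, with no overlap (log2 fold change -0.82, SE 0.0614, adjusted p = 3.83e-08). GADD45B, a stress-response gene (-0.81, adjusted p = 2.13e-05), THBS1, a matrix glycoprotein (-0.73, adjusted p = 1.46e-06), and TGM2, a protein cross-linking enzyme (-0.71, adjusted p = 1.57e-08), also fell. SCHIP1 was lower (-0.82, adjusted p = 0.0344) but lost its call without control replicate 3, knockdown replicate 1 or knockdown replicate 3 (adjusted p up to 0.125). GADD45A and GADD45B, which are close relatives, were thus called in opposite directions.

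Among the factors themselves, YAP1 was measured at 315, 336 and 309 CPM in control and at 268, 282 and 271 CPM in knockdown libraries. It fell by 0.22 on the log2 scale (SE 0.0521, edgeR adjusted p = 0.00416), far less than CYR61, and the groups did not overlap. WWTR1, which encodes TAZ, had a mean of 126.0 ± 6.88 CPM in control and 129.4 ± 8.85 CPM in knockdown cells (log2 fold change 0.04, adjusted p = 0.708). TEAD1 had means of 464.9 ± 22.7 and 477.2 ± 21.1 CPM (0.04, adjusted p = 0.659). TEAD2 (-0.08, adjusted p = 0.55) and TEAD3 (-0.17, adjusted p = 0.173) also missed the threshold, whereas TEAD4 fell (-0.31, adjusted p = 0.00707), from a mean of 40.4 ± 1.63 to 32.5 ± 3.20 CPM. VGLL4, which competes with YAP for TEAD, rose (0.35, adjusted p = 0.00695), but was not called without knockdown replicate 1 (adjusted p = 0.0787). VGLL1, VGLL2 and VGLL3 had too few counts to be tested. Of the 7 tested genes of this group, 2 were thus lower and 1 higher, beside 11.9% and 13.3% of all tested genes, so that the count of higher genes was near the background, and the median was -0.08 (-0.16 without control replicate 2 and -0.15 without knockdown replicate 3). RNA levels say nothing of where the YAP protein was or of its phosphorylation.

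Upstream of YAP, 16 of 16 listed Hippo kinases and adaptors were tested, and 6 were called lower and 0 higher at an adjusted p under 0.05, beside 11.9% and 13.3% of all tested genes, with a median of -0.16 (-0.08 without control replicate 2). LATS2, the kinase that inactivates YAP and itself a gene of the 22-gene signature, went from 64.48, 63.97 and 68.15 CPM to 47.40, 47.91 and 48.38 CPM. It fell by 0.45 on the log2 scale (adjusted p = 3.73e-05), with no overlap. PTPN14, a phosphatase that binds YAP and is in the same signature, fell by 0.41 (adjusted p = 2.96e-05). NF2, the tumour suppressor merlin, and WWC2, a scaffold, each fell by 0.36 (adjusted p = 6.54e-04 and 2.51e-04). WWC1, its relative, fell by 0.31 (adjusted p = 2.33e-04). SAV1, the adaptor of the MST kinases, was the last of the 6, at -0.25 (adjusted p = 0.0218), and lost its call without control replicate 2, knockdown replicate 1 or knockdown replicate 3 (adjusted p up to 0.103).

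Of 12 listed relatives of the 10 genes, 11 were tested, with 3 called lower and 3 higher, beside 11.9% and 13.3% of all tested genes (median 0.07, and -0.03 without knockdown replicate 2). Among the other CCN matricellular genes, WISP1 had 2.918, 4.256 and 2.593 CPM in control and 1.384, 1.196 and 1.947 CPM in knockdown libraries, and fell by 1.10 on the log2 scale (SE 0.236, adjusted p = 0.00244). NOV had counts of only 3, 4 and 3 in control and 14, 11 and 13 in knockdown libraries. It was called higher (adjusted p = 0.0194) but not without control replicate 1, control replicate 3 or knockdown replicate 1 (adjusted p up to 0.0832). WISP2 (-0.44, adjusted p = 0.494) and WISP3 (0.07, adjusted p = 0.853) overlapped between the groups, and WISP2 rested on 17 or fewer counts per library. The CCN family was thus not uniform, with CYR61, CTGF and WISP1 lower.

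AMOT, the founding angiomotin, had 38.7, 40.1 and 37.5 CPM in control and 64.4, 62.6 and 64.0 CPM in knockdown libraries. Every knockdown library was above every control library, the reverse of AMOTL2, and AMOT rose by 0.72 on the log2 scale (SE 0.0634, edgeR adjusted p = 3.11e-07). Among the relatives of AXL, which share GAS6 or protein S as ligands, MERTK rose from 3.54, 3.40 and 3.79 CPM to 6.88, 5.11 and 6.82 CPM (0.81, adjusted p = 7.97e-04), while TYRO3 overlapped between the groups (-0.07, adjusted p = 0.468). Of the AJUBA family, WTIP fell (-0.86, adjusted p = 6.65e-05) and LIMD1 missed the threshold (0.15, adjusted p = 0.143). NUAK1 fell (-0.29, adjusted p = 0.00142), with an SE of 0.0591 against 0.0810 for the -0.44 of NUAK2. ANKRD23, a relative of ANKRD1, was under 1.3 CPM in every library (0.30, adjusted p = 0.604), and ANKRD2 was too low to be tested.

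**Figure D5:**
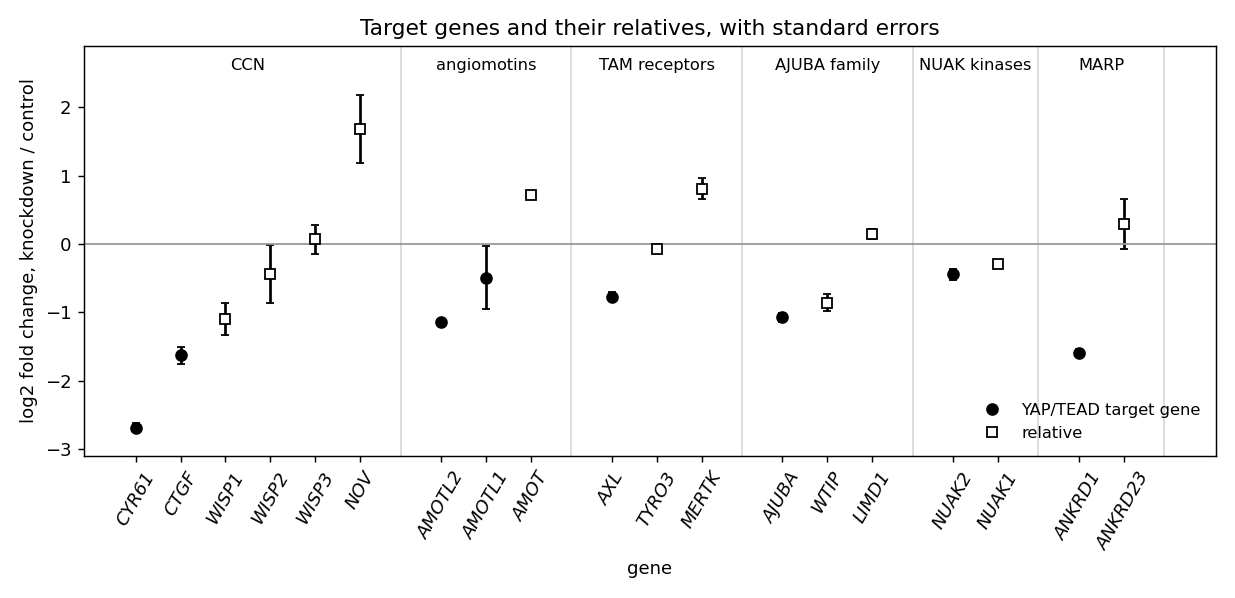
Fitted log2 fold change (knockdown over control) with its standard error for the 10 target genes except F3 and CRIM1 (filled circles) and their tested relatives (open squares), grouped by family. AMOT (0.72) and MERTK (0.81) lie above 0 whereas AMOTL2 (-1.15) and AXL (-0.77) lie below it, and NOV rests on 14 or fewer counts per library.

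Ligands, receptors and inhibitors known to work with the 10 proteins were read from a list of 13, of which 9 were tested, with 5 called lower (3 without knockdown replicate 1) and 1 higher, beside 11.9% and 13.3% of all tested genes (median -0.19). GAS6, the ligand of AXL, had 87.4, 80.1 and 86.7 CPM in control and 62.4, 64.7 and 66.8 CPM in knockdown libraries, and fell by 0.39 on the log2 scale (SE 0.0611, adjusted p = 1.48e-04). PROS1, which encodes protein S, overlapped between the groups (0.25, adjusted p = 0.245). BMP4, a growth factor that CRIM1 binds, had 82.73, 74.85 and 78.76 CPM in control and 41.94, 39.14 and 48.55 CPM in knockdown libraries, and fell by 0.87 (SE 0.0766, adjusted p = 3.11e-07), whereas BMP7 overlapped (-0.08, adjusted p = 0.324). Ligand and receptor were thus lower together in GAS6 with AXL, and BMP4 was lower with CRIM1. GAS6 and the integrin gene ITGB5 are also genes of the longer signature, so this list counts them again.

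Of the integrins that CYR61 and CTGF bind, ITGB5 fell (-0.44, adjusted p = 6.15e-06), ITGB1 overlapped between the groups (-0.06, adjusted p = 0.539) and ITGB3 was too low to be tested. ITGAV was lower (-0.21, adjusted p = 0.0128), but not called without knockdown replicate 1 (adjusted p = 0.0591). ITGA6 was lower too (-0.19, adjusted p = 0.018), but not called without control replicate 2 or 3 or knockdown replicate 1 or 3 (adjusted p up to 0.0696). On the side of tissue factor, F10, which encodes the coagulation factor that F3 with factor VIIa activates, rose from 5.29, 5.07 and 5.27 CPM to 10.5, 9.75 and 14.6 CPM (1.16, SE 0.145, adjusted p = 1.61e-05). F7, TFPI and TFPI2 had too few counts to be tested.

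The AP-1 genes, of which 10 of 10 were tested, had 4 called lower and 1 higher, beside 11.9% and 13.3% of all tested genes, with a median of -0.04 (0.04 without control replicate 1) and 2 called higher without control replicate 1 or without knockdown replicate 2. JUND (-0.55, adjusted p = 2.75e-05), FOSL1 (-0.31, adjusted p = 0.00135), JUN (-0.26, adjusted p = 0.0049) and FOSL2 (-0.26, adjusted p = 0.00297) fell. FOS rose from a mean of 86.8 ± 5.13 to 116.0 ± 5.15 CPM (0.42, adjusted p = 7.43e-05). Serum response factor and its MRTF cofactors share target genes with YAP, and of 9 tested genes of this group 5 were called lower and 0 higher at an adjusted p under 0.05, beside the same background (median -0.32). TPM1, a tropomyosin, fell by 0.63 (adjusted p = 3.81e-05), MYL9, a myosin light chain, by 0.50 (adjusted p = 3.32e-04), SRF itself by 0.36 (adjusted p = 8.75e-04) and MRTFA, its cofactor, by 0.32 (adjusted p = 0.00202). TAGLN, an actin-binding protein, was lower (-0.55, adjusted p = 0.0362) but not called without control replicate 1 or 3 or knockdown replicate 1 or 2 (adjusted p up to 0.194).

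The genes whose profile over the 6 libraries was most like the median profile of the 10 genes were LTBP2, GABARAPL1 and GNG11. Likeness was measured as the root mean square difference in log2 CPM, each gene taken less its control mean, and was 0.0389 for LTBP2, 0.0510 for GABARAPL1 and 0.0531 for GNG11. LTBP2, a matrix protein related to the fibrillins, had a mean of 169.5 CPM in control and 85.3 CPM in knockdown cells, GABARAPL1, an autophagy protein, 136.1 and 72.9 CPM, and GNG11, a G protein subunit, 21.2 and 11.1 CPM. Since they were chosen for this pattern, these levels are a description.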

How the data were processed

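Gene-level counts of RNA-seq libraries from 3 control and 3 CNOT7 knockdown samples were used as deposited. Per the labels, total RNA was isolated with TRIzol and libraries were made with the NEBNext Ultra RNA kit, and the submitters' processing notes name CASAVA 1.8, fastp, HISAT2 2.0.5, featureCounts 1.5.0-p3 and DESeq2 1.20.0, with the builds GRCh38 and hg38. The authors deposited raw counts per gene without normalization. The strand setting and read filters are not given in the sources used here. Gene lengths in the table matched the exonic lengths of GENCODE 29 for the 10 genes.

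The fits were run in edgeR 4.0.16 (R 4.3.3). The filterByExpr rule kept 17574 of 58735 genes, TMM factors scaled the libraries, and the quasi-likelihood test compared both groups, with Benjamini-Hochberg adjustment over all tested genes and a threshold of 0.05. Each SE was taken as the size of the log2 fold change over the root of its F statistic. The procedure was also run on simulated data with 200 planted genes. The outcome is not given here, so no result rests on it. The 10 genes, the gene lists and the tests were chosen with earlier results of these data known. Genes were named by a rule: the 10 genes, CNOT7, the YAP, TAZ and TEAD genes, every tested relative and partner, up to 5 called genes with separate groups and the largest log2 fold changes in each other list, and the 3 genes most alike in profile. Exceptions are marked in the text.

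Depth was 23788451 to 29104872 counts per library, and the SEs give the precision this allows. Within each group, replicates differed beyond sampling noise (chi-square per degree of freedom 3.26 to 10.9), so none was a copy of another. Promoter windows came from RefSeq (GRCh38.p14), and 3′ UTRs from GENCODE 29. Alternatives were DESeq2 1.42.0, RLE factors, no low-count filter, a minimum of 10 counts per gene in all libraries, a replicate block, cyclic loess offsets and each library left out in turn. No protein sequences were used here.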

Additional observations from a re-analysis of the deposited data

How the results depend on the processing

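Over 12 alternative fits no called result reversed its direction, and the log2 fold changes of the 10 target genes were below 0 in all 119 values. The largest range among the 8 genes with separate groups was that of CTGF, from -1.72 to -1.50. The median over the 10 genes was -1.07 with at least 10 counts in every library, which drops AMOTL1, and -0.89 with cyclic loess offsets. DESeq2 gave medians of -0.013 for the relatives and -0.26 for the SRF and MRTF genes, and no low-count filter gave -0.019 and -0.27. Both fits kept ANKRD2 among the relatives and CNN1 among the SRF and MRTF genes. The main fit had left these genes out for low counts, so the medians are over different sets of genes. SCHIP1, TAGLN and NOV were not called under DESeq2, and NOV was not called without the low-count filter either. Cyclic loess offsets gave medians of -0.11 for the longer signature, -0.0302 for the relatives, -0.11 for the ligands and receptors and -0.13 for AP-1. With these offsets 3 of the ligands and receptors were called lower and 1 Hippo gene higher. The share of all tested genes called with these offsets is not given here, so nothing is read from these counts. Apart from the change in the genes kept, the cause of these shifts was not tested.

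When single libraries were left out, the lowest and highest values were 1367 and 2219 for all genes called lower, -1.03 and -0.93 for the median of the 10 genes, 13 and 19 for the longer signature called lower, -0.18 and -0.078 for the Hippo median, -0.16 and -0.020 for the median of the YAP, TAZ, TEAD and VGLL genes (0 to 1 called higher), -0.029 and 0.096 for the median of the relatives, 3 and 5 for the ligands and receptors called lower, and -0.092 and 0.044 for the AP-1 median (1 to 2 called higher). Of 1497 values for single genes, 71 lost a call and 34 gained one.

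The replicate numbers in the titles were not taken to pair samples: same-numbered control and knockdown libraries had correlations of 0.0807, 0.333 and 0.0032, and not every library correlated best with its own number. A fit with the number as a replicate block called 3306 of the 17574 tested genes lower and 3202 higher. Without the block 2095 were called lower and 2329 higher. With the block, 9 of the 10 target genes were called lower (F3 added), 1 Hippo gene higher and 2 AP-1 genes higher. Depth limits the values of AMOTL1, NOV and WISP2, with 22 or fewer counts in every library, and of ANKRD23, with 30 or fewer.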
